A study of Manacus vitellinus and Taeniopygia guttata with 24 samples.

Results

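A set of 91 transcripts was abundant in the wing muscles of both the golden-collared manakin and the zebra finch and held a similar level in the pair of muscles sampled. They were chosen from 14926 genes listed in at least 1 library. The rule asked for a mean of at least 200 RPKM over the 12 manakin libraries and over the 12 finch libraries. It also asked that the mean of one muscle, the scapulohumeralis caudalis (SH), divided by the mean of the other, the pectoralis (PEC), lie between 0.67 and 1.5 in both species. After median-ratio scaling of the libraries within each species 52 genes met the rule, 41 of them among the 91. RPKM is the number of reads of a gene relative to its length and to the total reads of the library. Because measured levels chose the genes, their levels, muscle ratios and species means are a description and carry no test. Androgen treatment was not part of the rule, and the treatment differences were tested.

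Messenger RNA of whole muscle was sequenced to ask how androgens act on muscle gene expression in these birds. PEC is the large breast muscle that drives the downstroke, and SH lies behind the shoulder and pulls the wing back. In each species 6 males gave both muscles, 3 in each treatment, so the 24 libraries form 8 groups of 3. Manakin (Manacus vitellinus) SH +T and PEC +T came from birds with a testosterone implant, and SH -T and PEC -T from birds with a blank implant. Finch (Taeniopygia guttata) SH flutamide and PEC flutamide came from birds given a flutamide implant and, a day later, testosterone. Finch SH T-only and PEC T-only came from birds given a blank and then testosterone, so every finch carried testosterone. The sample characteristics describe the flutamide birds as having no testosterone, which differs from the treatment protocol, and the grouping here follows the titles and the protocol.

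Skeletal muscle fibres devote much of their messenger RNA to a small set of proteins that contract, supply energy or build protein, so a few transcripts stand far above the rest. Testosterone enters muscle cells and acts through the androgen receptor, which binds DNA and alters the transcription of nearby genes. Flutamide occupies this receptor without activating it. RPKM is a share of the library, so the value of each abundant transcript also depends on what the other abundant transcripts take up. In bulk muscle, fewer cells of a type and less RNA per cell cannot be told apart.

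The files list genes by zebra finch identifier in both species, and none of the 14926 identifiers was found in the gene table at hand (0 matches). The 91 genes therefore appear by identifier with no name or role. For the same reason the labelled muscles could not be checked against marker genes, and the pathway lists drawn up for named genes were not used. By totals recovered from RPKM, a manakin library held 9742206 to 15434530 reads in all, and a finch library held 14341212 to 23458937. Manakin SH +T library 2 stood apart, and treatment results of manakin SH are given with it and, in alternatives chosen in part after seeing the data, without it.

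All 91 genes were listed in all 24 libraries, and 90 were at 100 RPKM or more in every library, 63 of them at 200 RPKM or more. Single values lay between 80.4 and 29430 RPKM. The lowest number of recovered reads behind a value was 216, and the 91 genes together held 1172411 to 2755713 recovered reads in a library. At 200 RPKM or more on average there were 469 genes in manakin and 324 in finch, and 186 genes passed in both, of which the 91 are 48.9%. The other 95 failed on the muscle ratio. Of these, 32 were low in SH in both species and 9 were high in SH in both. A further 15 were low in SH in manakin alone and 23 in finch alone, 3 were high in SH in manakin alone and 11 in finch alone, and 2 went opposite ways.

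Genes near the thresholds differed little from those that missed them. ENSTGUG00000004672 passed with a manakin mean of 212.9 RPKM, and ENSTGUG00000000861 missed with 198.8 RPKM. In finch ENSTGUG00000013204 passed at 205.3 RPKM and ENSTGUG00000012497 missed at 199.7 RPKM. The lowest manakin ratio of SH to PEC that passed was 0.686 (ENSTGUG00000003882), and the nearest outside was 0.667 (ENSTGUG00000008739). At the upper bound these ratios were 1.46 (ENSTGUG00000008663) and 1.58 (ENSTGUG00000000630). The finch ratios nearest the lower bound were 0.675 (ENSTGUG00000006047) and 0.665 (ENSTGUG00000006696), and those nearest the upper bound were 1.49 (ENSTGUG00000004622) and 1.51 (ENSTGUG00000005703).

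Within the set, levels spanned more than an order of magnitude and a few genes dominated. The mean level of a member had a median of 917 RPKM in manakin, from 213 to 17707 RPKM, and a median of 479 RPKM in finch, from 205 to 10071 RPKM. In 14 members it reached 1000 RPKM in both species. The 4 highest members of each species made up 30.9% of the set's summed RPKM in manakin and 28.0% in finch, and the 10 highest made up 49.3% and 41.2%.

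ENSTGUG00000011416 had the highest mean over the 24 libraries. In manakin it had 27025, 10392 and 22003 RPKM in SH +T, 18417, 29430 and 16680 in SH -T, 16247, 10725 and 11745 in PEC +T, and 13292, 23559 and 12970 in PEC -T. In finch it had 6221, 6169 and 6037 RPKM in SH flutamide, 4767, 5434 and 5636 in SH T-only, 4855, 5856 and 4990 in PEC flutamide, and 5894, 5333 and 4561 in PEC T-only. Every manakin library lay above every finch library, and the manakin birds varied more among themselves than the finch birds.

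ENSTGUG00000006757 came next and was the most even of the 4 between species. Its manakin values were 15668, 6404 and 16314 RPKM in SH +T, 13100, 14095 and 13899 in SH -T, 11550, 9579 and 13278 in PEC +T, and 13236, 15958 and 10719 in PEC -T. The finch values were 9898, 10165 and 12538 RPKM in SH flutamide, 8394, 8897 and 8510 in SH T-only, 10082, 10455 and 11577 in PEC flutamide, and 7873, 12278 and 10188 in PEC T-only. The species overlapped, and the single lowest value was that of manakin SH +T library 2.

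ENSTGUG00000018758 averaged 11559 RPKM in manakin and 1292 RPKM in finch. Manakin SH +T birds had 9920, 13224 and 5678 RPKM against 12132, 9665 and 21570 in SH -T, and PEC +T birds had 4012, 13761 and 12925 against 11621, 13116 and 11080 in PEC -T. Finch SH flutamide birds had 2145, 694 and 1912 RPKM against 906, 763 and 1175 in SH T-only, and PEC flutamide birds had 1930, 916 and 1419 against 1260, 919 and 1467 in PEC T-only. Birds of 1 group differed by several fold in both species, and each treatment pair overlapped.

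ENSTGUG00000005949 averaged 7984 RPKM in manakin and 1508 RPKM in finch. In manakin it was lower in SH than in PEC, with a ratio of means of 0.718, and in finch higher in SH, with a ratio of 1.32. Manakin SH +T birds had 4300, 5974 and 7503 RPKM against 8541, 7917 and 5792 in SH -T, and PEC +T birds had 11060, 11269 and 10241 against 9101, 5372 and 8743 in PEC -T. Finch SH flutamide birds had 1200, 1323 and 963 RPKM against 2772, 2541 and 1489 in SH T-only, and PEC flutamide birds had 1252, 1696 and 1034 against 1200, 1105 and 1526 in PEC T-only. The finch SH groups and the manakin PEC groups did not overlap, and the others did.

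Most of the set was higher in manakin than in finch, as were most genes. The mean was higher in manakin for 71 members and lower for 20, with a median ratio of manakin to finch of 2.02. In 46 members manakin was at least 2-fold higher, in 7 at least 5-fold, and in 3 finch was at least 2-fold higher. All 12 manakin libraries lay above all 12 finch libraries for 34 members and below them for 3. Shares over all genes are not given for these fold and separation counts, so they do not set the members apart. Among the 95 other abundant genes the median ratio was 1.57, with 71 higher in manakin. Over all 7237 genes that passed the filter on low values in both species it was 1.66, with 72.5% higher in manakin. Manakin reads were assigned to zebra finch genes, and the part of sequence divergence in these ratios was not tested.

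**Figure D1:**
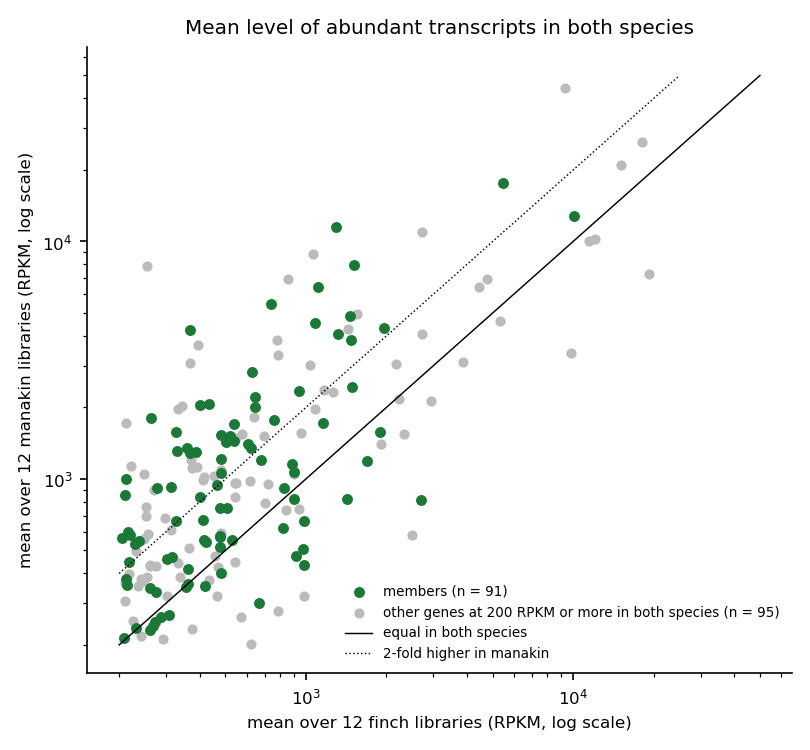
Mean level of each of the 91 members (green) and of the 95 other genes at 200 RPKM or more in both species (grey), with the mean over 12 manakin libraries on the y axis and over 12 finch libraries on the x axis, both in RPKM on log scales. Of the 91 members, 71 lie above the solid line of equal means and 46 on or above the dotted line of a 2-fold higher manakin mean.

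The largest species ratio was that of ENSTGUG00000002238, with a mean of 4236 RPKM in manakin and 368 RPKM in finch, a ratio of 11.5. It was followed by ENSTGUG00000018758 at 8.95. At the other end, ENSTGUG00000012808 averaged 813 RPKM in manakin and 2694 RPKM in finch, a ratio of 0.302. Its manakin group means were highest in SH +T, at 1042 ± 335 RPKM, and lowest in PEC -T, at 621 ± 40 RPKM (SD, n = 3 each). The finch group means were highest in SH flutamide, at 3042 ± 763 RPKM, and lowest in PEC T-only, at 2347 ± 935 RPKM (SD, n = 3 each). ENSTGUG00000011392 averaged 435 RPKM in manakin and 979.8 RPKM in finch, a ratio of 0.444.

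All genes of a group were ranked by their mean, and the members spread widely over the upper ranks. The median rank of a member was 137 in manakin SH +T, 123 in SH -T, 138 in PEC +T and 121 in PEC -T. In finch it was 146 in SH flutamide, 140 in SH T-only, 149 in PEC flutamide and 156 in PEC T-only. The lowest-ranked member of a group stood at rank 359 to 582. Across all 8 groups 44 members stayed within the first 200, 14 within the first 100 and 3 within the first 50.

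More members reached the first 20 in manakin than in finch. Their number was 7 in manakin SH +T, 10 in SH -T, 5 in PEC +T and 6 in PEC -T. In finch it was 2 in SH flutamide, 2 in SH T-only, 1 in PEC flutamide and 1 in PEC T-only. ENSTGUG00000006757 was the 1 member within the first 20 in all 8 groups, with ranks of 5 to 18. ENSTGUG00000011416 had rank 3 to 9 in the manakin groups and rank 19 to 25 in the finch groups.

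**Figure D2:**
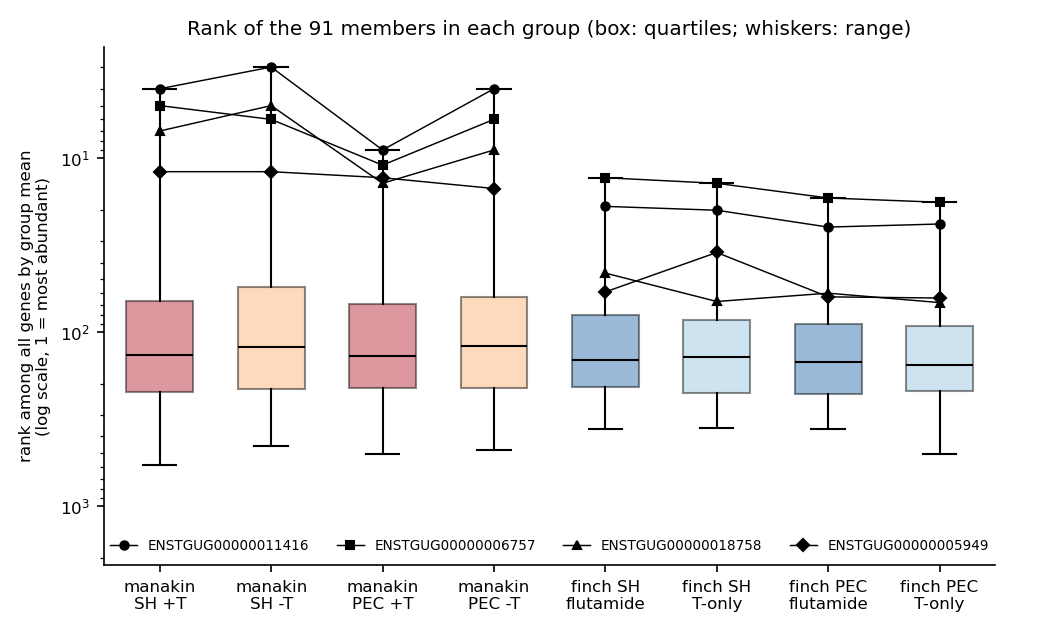
Rank of the 91 members among all genes by group mean (log scale, 1 is the most abundant) in the 8 groups, with boxes for quartiles and median, whiskers for the full range and lines for the 4 members of highest mean. The median rank lies between 121 and 156 in all groups, and the best rank is 3 to 9 in manakin and 13 to 18 in finch.

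As deposited, the set took about 2 times as large a part of the RPKM of the manakin libraries as of the finch libraries. Its share of all RPKM averaged 20.7% over the manakin libraries and 10.5% over the finch libraries. When the 20 most abundant genes of each species were left out, members among them included, the remaining members held 17.6% in manakin and 16.3% in finch. As given above, more members stood in the first 20 in the manakin groups than in the finch groups, so these values cover different parts of the set. In manakin SH +T the share of the whole set was 22.5%, 14.0% and 21.5%, a mean of 19.3 ± 4.62%. In SH -T it was 22.2%, 23.4% and 23.3%, a mean of 23.0 ± 0.681% (SD, n = 3 each). Library 2 of SH +T was the lowest of the 12 manakin libraries, and the other SH +T birds overlapped those of SH -T. Manakin PEC +T averaged 19.4 ± 0.998% and PEC -T 21.1 ± 1.76% (SD, n = 3 each).

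In finch the share was 11.3 ± 0.781% in SH flutamide and 10.9 ± 0.322% in SH T-only (SD, n = 3 each). In PEC it was 10.1 ± 0.784% with flutamide and 9.85 ± 1.05% with T-only (SD, n = 3 each). Each treatment pair overlapped. Two-sided exact permutation tests over birds gave p = 0.2 in manakin SH, 0.2 in manakin PEC, 0.6 in finch SH and 0.7 in finch PEC. Adjusted over these 4 tests the p-values were 0.4, 0.4, 0.7 and 0.7, and with 3 birds against 3 the smallest possible p is 0.1.

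**Figure D3:**
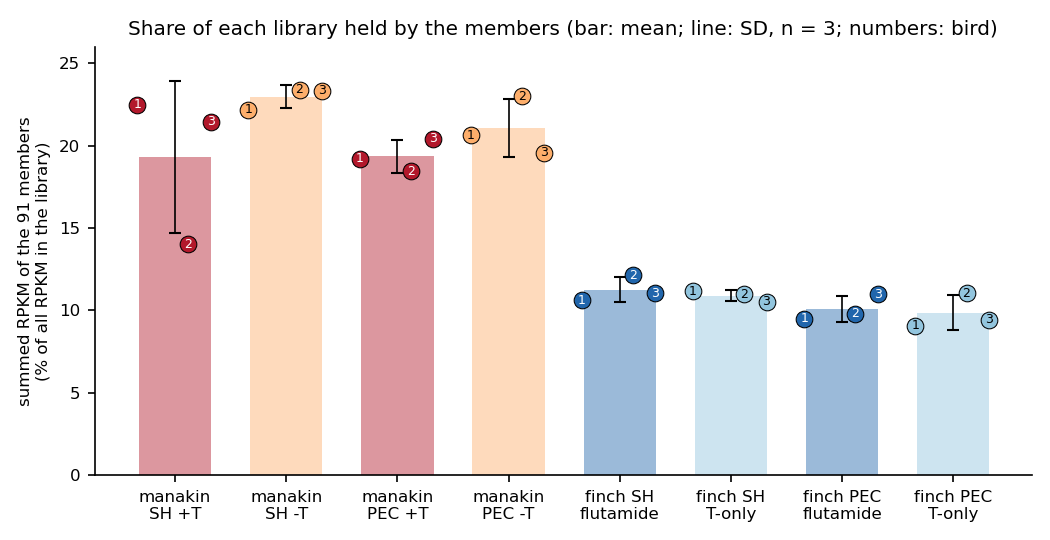
Share of all RPKM of a library held by the 91 members, in percent, with 1 numbered point per bird, bars for group means and lines for the SD of 3 birds. The manakin libraries lie between 14.0% and 23.4% and the finch libraries between 9.07% and 12.1%, and manakin SH +T library 2 is the lowest manakin point.

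Manakin SH +T library 2 carried the lowest value of all 12 manakin libraries for 46 of the 91 members, and the next library did so for 9. Within its group of 3 it was the lowest for 64 members and the highest for 14. Its ratio to the mean of the other SH +T libraries had a median of 0.708 over members. The other abundant genes also took their lowest share of RPKM in this library, at 18.1%, and the next manakin library had 28.6%. A low level in library 2 was thus not particular to the members. Counts of lowest values over all genes are not given.

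The rule left a narrow range of muscle ratios, and within it, as deposited, somewhat more members lay below 1 than above. The median ratio of mean SH to mean PEC was 0.961 in manakin, with 51 members below 1 and 40 above. In finch it was 0.909, with 60 below 1 and 31 above. In 58 members both species lay on the same side of 1, 39 below and 19 above, and in 33 the species lay on opposite sides. Membership by muscle ratio changed with the scaling of the libraries. After median-ratio scaling 52 genes met the rule, of which 41 were members. Counts on either side of 1 are not given for that scaling or for other genes. A general difference between the muscles therefore cannot be read from these ratios or from those of single birds.

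Single birds were less even than the means. In manakin the SH to PEC ratio of all 6 birds lay between 0.5 and 2 for 59 members, and single ratios ran from 0.186 to 3.14. In finch this held for 82 members, with single ratios from 0.479 to 2.96. The highest bird exceeded the lowest by a median of 2.15 times in manakin and 1.69 times in finch. By bird, the median ratio over members was 1.02, 0.727 and 0.908 in manakin +T and 1.01, 1.00 and 0.916 in manakin -T. The bird of SH +T library 2 was thus the lowest of the 6. Finch birds had 0.923, 0.991 and 0.889 with flutamide and 0.919, 0.881 and 0.896 with T-only, all below 1.

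Recovered gene lengths had a median of 1044 bases over members, 731 bases over the 95 other abundant genes and 1357 bases over all genes that passed the filter in both species. Genes under 600 bases made up 17.6% of members, 40% of the other abundant genes and 11.1% of all genes that passed. ENSTGUG00000018758 had 297 bases and ENSTGUG00000002238 had 375 bases.

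Birds of a group differed by a moderate amount for most members. The coefficient of variation (SD divided by mean, n = 3) had a median over members of 29.1% in manakin SH +T (14.7% without library 2, n = 2), 14.5% in SH -T, 19.5% in PEC +T and 13.9% in PEC -T. In finch the median was 13.5% in SH flutamide, 15.6% in SH T-only, 16.7% in PEC flutamide and 19.5% in PEC T-only. On the log2(RPKM + 1) scale the SD left within groups had a median over members of 0.33 in manakin and 0.27 in finch. Over all genes tested these medians were 0.50 and 0.37, and over the other abundant genes 0.51 and 0.37. No test was made of this difference. The rule set limits on muscle ratios in these same libraries, which can leave out genes that vary more between birds.

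The 8 group means of a member differed by a median of 3.10-fold, and by a median of 1.53-fold among the 4 manakin groups and 1.41-fold among the 4 finch groups. In 5 members all 8 means lay within 1.5-fold. ENSTGUG00000002328, chosen after its values were seen, was the steadiest, with a coefficient of variation of 12.1% over the 24 libraries. Its group means were 351 ± 38 RPKM in manakin SH +T, 342 ± 44 in SH -T, 346 ± 70 in PEC +T and 363 ± 54 in PEC -T (SD, n = 3 each). In finch they were 361 ± 4 RPKM in SH flutamide, 397 ± 39 in SH T-only, 325 ± 36 in PEC flutamide and 338 ± 46 in PEC T-only (SD, n = 3 each). Its 24 values ran from 266 to 440 RPKM.

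The androgen treatments were compared with limma on log2(RPKM + 1) over all genes tested of a species, with Benjamini-Hochberg adjustment over those genes. No member passed an adjusted p of 0.05 in manakin SH, manakin PEC, finch SH or finch PEC (0 of 91 in each). The share of all genes tested that passed was 0.0222% in manakin SH, 0.4% in manakin PEC, 6.19% in finch SH and 0.0% in finch PEC. At an unadjusted p below 0.05 there were 11, 6, 15 and 2 members in these 4 comparisons, against 11.5%, 13.3%, 19.4% and 5.35% of all genes tested. With limma-voom on recovered reads the members called were 0, 0, 1 and 0, out of 0, 16, 473 and 0 genes called in all. Within a species the SH and PEC comparisons share their birds.

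The intervals show how large a difference these data leave room for. The 95% interval of the treatment difference lay within 2-fold in both directions for 50 members in manakin SH, 59 in manakin PEC, 73 in finch SH and 83 in finch PEC. Over all genes tested it did so for 26.8%, 23.7%, 48.3% and 61.9%. For the remaining members a change of 2-fold was within the interval. The spread within groups, on which the intervals rest, was smaller in members than over all genes, as given above. The rule on muscle ratios can have a part in that, so these counts do not compare the androgen response of members and other genes.

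In manakin SH the members were on balance lower in +T, and this rested largely on 1 library. The median log2 difference over members was -0.26, against 0.11 over all genes tested and -0.37 over the other abundant genes, and 62 of 91 members were below 0. Without SH +T library 2 the median was -0.05, against -0.01 over all genes, and 47 of 91 were below 0. The number at an unadjusted p below 0.05 was then 7 in place of 11, against 8.68% of all genes. Without SH +T library 3 it was 28, against 19.3%. With all libraries, 9 of these 11 members were lower in +T and 2 higher, against 4.52% and 7.01% of all genes tested. Of the other abundant genes, 11 were lower and 3 higher at this level. The groups did not overlap for 5 members higher in +T and 14 lower, against 7.75% and 6.8% of all genes tested. Among the other abundant genes the numbers were 3 and 10. Without library 2, which leaves 2 birds against 3, the groups did not overlap for 15 members higher and 15 lower, against 11.9% and 13.1%.

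ENSTGUG00000002238, the gene with the largest species ratio, had the smallest p among members higher in manakin SH +T. It had 6397, 6824 and 4423 RPKM in SH +T against 2976, 3531 and 3271 in SH -T. All 3 +T birds exceeded all 3 -T birds. The log2 difference was 0.83 ± 0.26 (SE), and limma's adjusted p was 0.293. Without library 2 these were 0.71 ± 0.24 (SE) and 0.400. In PEC the groups overlapped, with 4139, 3242 and 4645 RPKM in +T against 3400, 4251 and 3730 in -T and a log2 difference of 0.07 ± 0.26 (SE). The SH difference minus the PEC difference was 0.76, with a 95% interval of -0.03 to 1.55 and a limma adjusted p of 0.818.

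ENSTGUG00000012047 had the smallest p among members lower in manakin SH +T. It had 720, 274 and 1307 RPKM in SH +T against 1695, 2564 and 2558 in SH -T, and the groups did not overlap. The lowest of these values was in library 2. The log2 difference was -1.81 ± 0.46 (SE), with a limma adjusted p of 0.227, which ran from 0.0140 to 0.515 over 20 alternative settings and was 0.0485 without SH +T library 3. Without library 2 the difference was -1.20 ± 0.32 (SE), at a limma adjusted p of 0.214. PEC +T birds had 742, 1009 and 825 RPKM against 1451, 1960 and 1158 in PEC -T, again without overlap, which gave -0.81 ± 0.46 as log2 difference (SE), at a limma adjusted p of 0.488.

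At least a 2-fold difference was found in 4 members in manakin SH, all lower in +T, against 13.2% of all genes tested in either direction. The number was 3 without SH +T library 2, against 8.71% of all genes, and 12 without library 3, against 21.2%. The widest was that of ENSTGUG00000003882, which also sits at the lower edge of the muscle ratio and whose treatment values were picked out after they were seen. SH +T birds had 2950, 788 and 4216 RPKM against 9102, 7076 and 7245 in SH -T. The difference was -1.86 ± 0.53 on the log2 scale (SE), at a limma adjusted p of 0.254. Without library 2, whose value was the lowest, it was -1.14 ± 0.34 (SE), at a limma adjusted p of 0.303, and ENSTGUG00000012047 then had the widest difference. PEC +T birds had 3662, 4115 and 5627 RPKM against 10991, 6471 and 14889 in PEC -T, which differ by -1.21 ± 0.53 on the log2 scale (SE), at a limma adjusted p of 0.344. The +T birds were below the -T birds in both muscles without overlap, and neither difference passed the adjustment.

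In manakin PEC the median member was close to equal in both treatments while the median gene was lower in +T. The median log2 difference over members was -0.01, against -0.18 over all genes tested, and 43 members were above 0 and 48 below. With any 1 library left out the member median lay between -0.06 and 0.04. At an unadjusted p below 0.05 there were 12 members in place of 6 without SH +T library 2, which shares the fit, against 17.8% of all genes. Median-ratio scaling moved the median of all genes by 0.18 and that of members to 0.21. Relative to all genes the members stood 0.17 higher as deposited and 0.21 higher after this scaling. The 95 other abundant genes stood 0.27 and 0.31 higher, so the offset was not particular to the members. The groups did not overlap for 9 members higher in +T and 10 lower, against 5.02% and 17.4% of all genes tested. After median-ratio scaling there were 20 higher and 1 lower, against 9.62% and 9.83%. Of the 95 other abundant genes, 9 were higher and 7 lower without overlap as deposited, and 17 and 5 after scaling. Only 2 members differed by at least 2-fold, against 11.0% of all genes tested.

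ENSTGUG00000007864 had the smallest p among members higher in manakin PEC +T, with 556, 698 and 747 RPKM against 367, 462 and 455 in PEC -T. The groups did not overlap. Their log2 difference was 0.64 ± 0.22 (SE), with a limma adjusted p of 0.229. In SH it had 557, 485 and 750 RPKM in +T against 488, 501 and 498 in -T, where the groups overlapped.

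ENSTGUG00000006052 had the smallest p among members lower in manakin PEC +T. PEC +T birds had 1789, 1297 and 1466 RPKM against 2570, 2766 and 2095 in PEC -T, and SH +T birds had 1357, 1274 and 1268 RPKM against 1903, 2111 and 1766 in SH -T. In both muscles every +T bird was below every -T bird. On the log2 scale the difference was -0.71 ± 0.22 in PEC (SE, limma adjusted p = 0.169) and -0.56 ± 0.22 in SH (SE, limma adjusted p = 0.359). In finch SH this gene had 432, 326 and 317 RPKM under flutamide against 232, 251 and 323 with T-only, and these groups overlapped.

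In finch SH the median member lay above 0 and the median gene below it. Of all genes tested, 589 were called lower under flutamide and 6 higher, and no member was among them. The median log2 difference over members was 0.22, against -0.21 over all genes and 0.23 over the other abundant genes, and 57 of 91 members were above 0. Median-ratio scaling moved the median of all genes by 0.23 and that of members to 0.49. Relative to all genes the members stood 0.43 higher as deposited and 0.48 higher after scaling. They stood 0.30 to 0.51 higher when any 1 of the 6 finch SH libraries was left out. The other abundant genes stood 0.45 higher as deposited and 0.49 higher after scaling, so the offset was not particular to the members. The part that a changed makeup of the library has in this offset was not tested.

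Groups without overlap in finch SH numbered 21 members higher under flutamide and 6 lower, against 3.83% and 23.1% of all genes tested. Among the 95 other abundant genes the numbers were 25 and 8. After median-ratio scaling 41 members were higher and 4 lower, against 11.6% and 14.4% of all genes. Among the other abundant genes the numbers were then 37 and 6. At an unadjusted p below 0.05, 10 members were higher and 5 lower, against 1.53% and 17.9% of all genes tested. Of the other abundant genes, 6 were higher and 6 lower at this level.

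**Figure D4:**
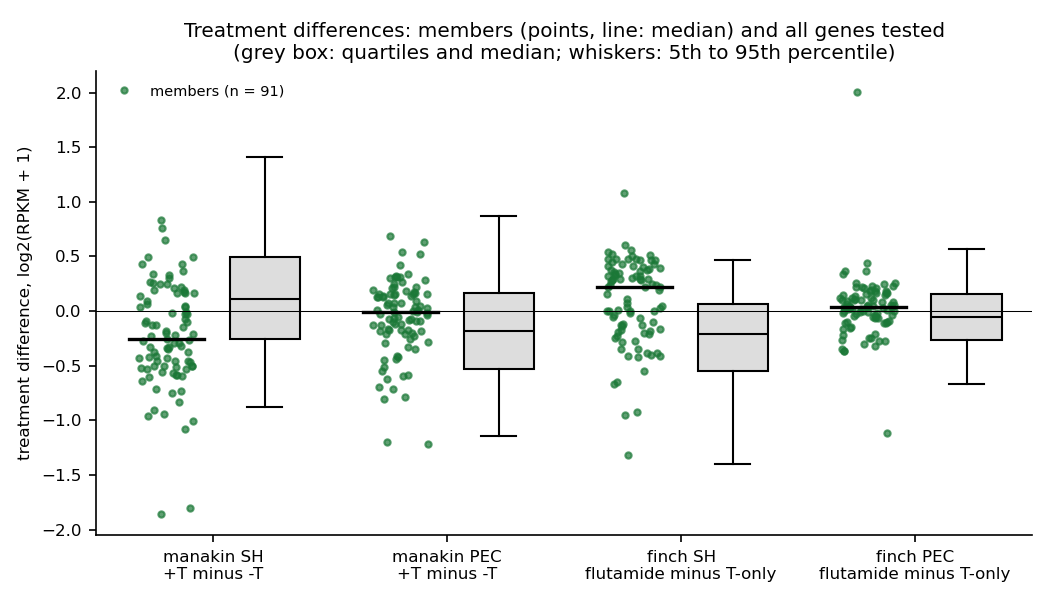
Treatment difference of each of the 91 members (green points, black line at their median) beside all genes tested (grey box for quartiles and median, whiskers from the 5th to the 95th percentile), as the difference of group means on log2(RPKM + 1). Member medians are -0.26 in manakin SH, -0.01 in manakin PEC, 0.22 in finch SH and 0.04 in finch PEC, against 0.11, -0.18, -0.21 and -0.06 over all genes.

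ENSTGUG00000003253 had the smallest p among members higher in finch SH under flutamide, with 1022, 919 and 1015 RPKM against 649, 613 and 741 with T-only. All 3 flutamide birds were above all 3 T-only birds. The log2 difference was 0.56 ± 0.18 (SE), with a limma adjusted p of 0.0883. PEC flutamide birds had 872, 840 and 991 RPKM against 791, 696 and 794 with T-only, also without overlap, and differed by 0.24 ± 0.18 on the log2 scale (SE, limma adjusted p = 0.988).

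ENSTGUG00000018459 came closest to a call in finch SH, and its flutamide birds had less of it in both muscles. SH flutamide birds had 255, 375 and 217 RPKM against 935, 785 and 439 with T-only, and the groups did not overlap. PEC flutamide birds had 209, 376 and 263 RPKM against 827, 776 and 329 with T-only, and here 1 flutamide bird lay above 1 T-only bird. T-only bird 3 was the lowest of its group in both muscles. The log2 difference was -1.31 ± 0.38 in SH (SE, limma adjusted p = 0.0598) and -1.12 ± 0.38 in PEC (SE, limma adjusted p = 0.786). In SH the adjusted p ran from 0.0208 to 0.291 over 20 alternatives and passed in 5 of them. One of these took the replicate number as a block and gave 0.0208, although equal numbers in different treatments mark different birds. Leaving out SH T-only library 3 gave 0.0287, and leaving out PEC T-only library 3 gave 0.0307. After median-ratio scaling the log2 difference in SH was -1.04, at a limma adjusted p of 0.171. In manakin the gene had 1702, 1467 and 1761 RPKM in SH +T against 1632, 2253 and 1565 in SH -T, which overlapped.

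Among the 4 most abundant members, ENSTGUG00000005949 had the smallest p in finch SH. Its 3 flutamide birds lay below its 3 T-only birds, as given above, by -0.93 ± 0.27 on the log2 scale (SE, limma adjusted p = 0.0637). Over 20 alternatives the adjusted p ran from 0.0173 to 0.309, and it was 0.0183 without SH T-only library 3. After median-ratio scaling the SH difference was -0.65 on the log2 scale, at a limma adjusted p of 0.286. In PEC its difference as deposited was 0.04 ± 0.27 (SE). The SH difference minus the PEC difference was -0.96, with a 95% interval of -1.80 to -0.13 and a limma adjusted p of 0.544. ENSTGUG00000011416 differed by 0.22 ± 0.19 on the log2 scale in SH (SE, limma adjusted p = 0.601), and ENSTGUG00000006757 had 0.33 ± 0.22 (SE, limma adjusted p = 0.453).

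In finch PEC most members were close to equal in both treatments, as were most genes. The median log2 difference was 0.04, against -0.06 over all genes tested, and the groups did not overlap for 4 members higher under flutamide and 2 lower, against 3.3% and 5.11% of all genes. A difference of at least 2-fold was found in 2 members, a share close to the 2.73% of all genes tested.

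ENSTGUG00000012207 was 1 of these, and had the largest treatment difference of any member in any of the 4 comparisons. It had 341, 573 and 562 RPKM in PEC flutamide against 147, 106 and 108 in PEC T-only. Every flutamide bird had at least 2 times the level of every T-only bird. The log2 difference was 2.00 ± 0.35 (SE), with an unadjusted p of 5.6e-05 and a limma adjusted p of 0.181, which ran from 0.0425 to 0.579 over 20 alternatives. The value of 0.0425 was reached without finch SH flutamide library 1 and was the 1 alternative that called it.

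In finch SH the same gene had 218, 569 and 532 RPKM with flutamide against 219, 146 and 217 with T-only. Flutamide bird 1 was at the T-only level there, and the log2 difference was 1.08 ± 0.35 (SE, limma adjusted p = 0.0888). Without SH flutamide library 1 it was 1.52 ± 0.29 (SE), with a limma adjusted p of 0.0124, the lowest of 20 alternatives, of which the highest gave 0.292. The SH difference minus the PEC difference was -0.92, with a 95% interval of -1.98 to 0.13. In manakin it varied by several fold within groups, with 1352, 369 and 597 RPKM in SH +T against 791, 631 and 2026 in SH -T. PEC +T birds had 1230, 349 and 1154 RPKM against 1100, 581 and 948 in PEC -T, and both pairs overlapped.

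**Figure D5:**
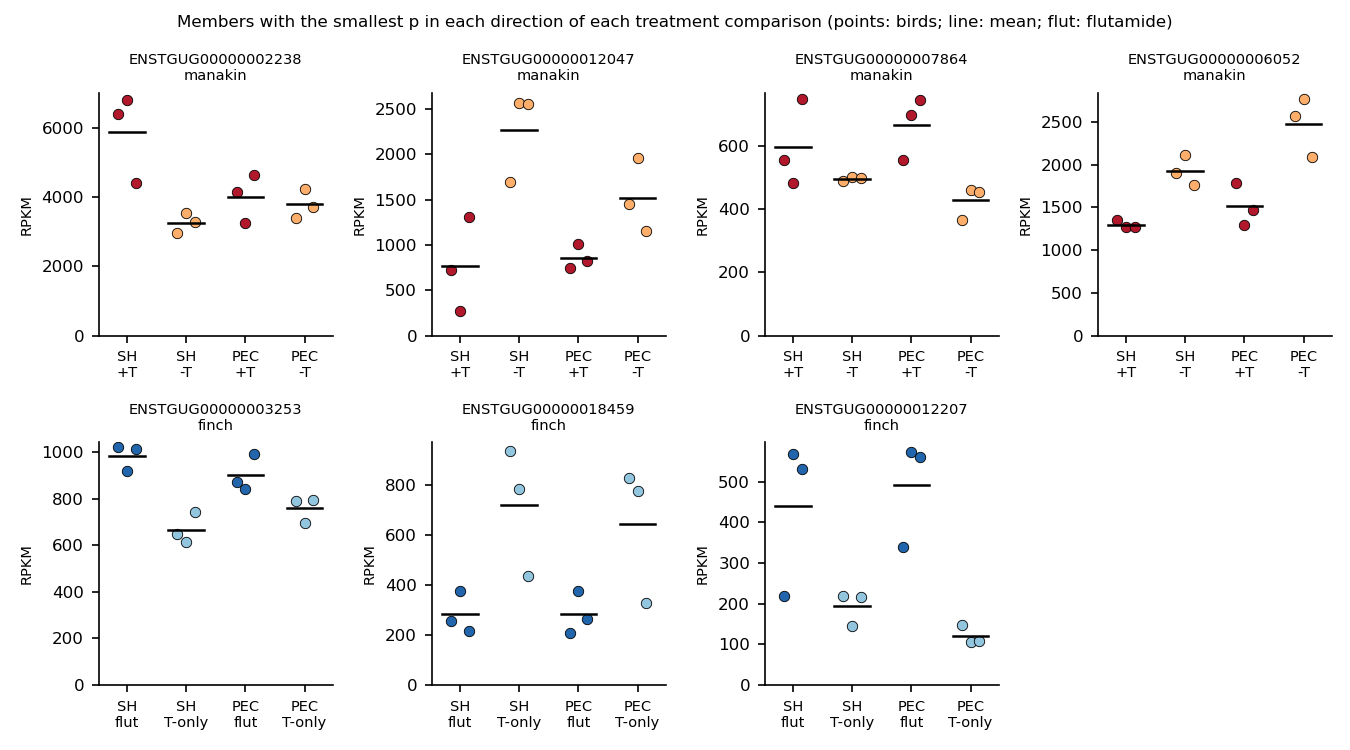
RPKM of the 7 members with the smallest p in a direction of a treatment comparison, with 1 point per bird and a line at the mean of 3, in the 4 groups of the species concerned. ENSTGUG00000012207 lies at 341 to 573 RPKM in finch PEC flutamide and 106 to 147 RPKM in PEC T-only, and ENSTGUG00000018459 is lower under flutamide in finch SH without overlap.

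Whether a treatment difference depended on the muscle was tested in the same fits. These hold no bird term, although SH and PEC came from the same birds, so the intervals are unpaired. A fit with the bird as a block is given among the alternatives. No member was called in manakin or in finch (0 of 91 each), and none of the genes tested was (0.0% in both species). At an unadjusted p below 0.05 there were 2 members in manakin and 2 in finch, against 5.11% and 7.35% of all genes tested. With limma-voom these were 6 and 2, against 4.62% and 4.6% of all genes tested, and again 0 members and 0 genes were called. The 95% interval of this difference lay within 2-fold in both directions for 19 members in manakin and 48 in finch. The share over all genes is not given here, so these counts do not set the members apart from other genes.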

How the data were processed

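Per the labels' protocols, total RNA of whole muscle was extracted with Trizol and a column, treated with DNase and made into strand-specific libraries after selection of polyadenylated RNA. The authors deposited 1 list of RPKM values per library, and per the file headers genes follow Ensembl release 68. Tools named in the submitters' processing notes are Bowtie 0.12.9, cutadapt and CASAVA. Their settings, the genome build and the way reads were counted are not given in the sources used here. An unlisted gene was read as 0. Groups follow the titles.

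Tests used limma 3.58.1 in R 4.3.3 on log2(RPKM + 1), 1 fit for the 12 libraries of a species with a mean per group. The filter on low values asked for 1 RPKM in 3 or more libraries of the species and left 8989 genes in manakin and 9606 in finch. All 91 members passed. Benjamini-Hochberg adjustment covered all genes of a comparison, and calls were made at an adjusted p under 0.05. Fold changes on this scale are slightly understated. Differences and fold changes are +T minus -T and flutamide minus T-only. Fits without and with a trend of variance on level were both seen before the trend was taken as the main setting. It was taken because its counts over all genes matched those of an earlier account of these data. The fit without it is an alternative.

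Reads were recovered from RPKM as whole numbers. For each gene the shortest length was taken that made its values whole to within 3e-10 of their size. This closeness was thus set by the method and is no check of it. Such lengths were found for all 113221 manakin and 136090 finch values, and these reads served limma-voom as an alternative. Of recovered reads under 200, 71.71% were even in manakin and 48.65% in finch. The recovery and the fits were also run on simulated data. For the fits these had independent libraries and the same added spread for every gene. They held no outlying library and no excess of even counts, so they cannot check the methods against those features. Shares were compared with exact permutation tests (scipy 1.17.1). Other steps ran in Python 3.11.15 with pandas 2.3.3, numpy 2.4.6 and matplotlib 3.10.9.

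By the bird codes of the deposited lists, SH and PEC libraries of equal number and treatment come from 1 bird. Their deviations from group means correlated at -0.147 to 0.24 in manakin and 0.283 to 0.37 in finch. Replicate numbers shared by treatments mark different birds. Limma's p-values in the main fit rest on the spread within groups, pooled over both muscles of a species and without a bird term. The muscles of a bird were thus treated as separate. The p-value of 1 muscle also draws on the libraries of the other.

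The members and the gene lists were chosen with earlier results of these data known. Named genes are the 4 members of highest mean, those nearest each threshold, the 2 highest and 2 lowest species ratios, and in each direction of a treatment comparison the member with the smallest p, since none was called. Alternatives were other pseudocounts, filters, scalings and weights, a replicate block, and each library left out.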

Additional observations from a re-analysis of the deposited data

How the results depend on the processing

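Of 345 alternative values, 316 stayed close to the main value: tested values kept their direction and side of the threshold, counts stayed within 1.5 times and values without a test moved by less than the spread between birds. A further 19 moved, and 10 passed the threshold where the main value did not. Of the 316 values, 111 were counts of members called that stayed at 0. Direction was scored only for the members of smallest p in a direction of a comparison, and 0 of those values changed it. Other differences given above did change sign. That of ENSTGUG00000002238 in manakin PEC ran from -0.04 to 0.30, and that of ENSTGUG00000005949 in finch PEC from -0.15 to 0.20. The median member difference in manakin PEC, which has no test, had the other sign in 4 of 8 alternatives. The number of members was 209 at a mean of 100 RPKM, 54 at 400 RPKM and 29 with a narrower range of muscle ratios. It was 52 after median-ratio scaling, of which 41 were among the 91, and 86 to 98 with any 1 library left out. Medians over libraries gave 91 members, 81 of them shared. Without the 20 most abundant genes, members among them included, the remaining members held 17.6% of RPKM in manakin and 16.3% in finch. By reads the share of the whole set was 12.5% in finch. In manakin the group means by reads ran from 19.0% in SH +T to 23.1% in PEC -T.

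The main count of members called was 0 in all 6 tests. Limma array weights, added after seeing the data, called 4 in manakin SH and 6 in finch SH, where they called 321 genes (3.57%) and 1028 genes (10.7%) in all. Limma-voom called 1 in finch SH, of 473 genes in all (4.92%). Leaving out 1 library gave 0 to 1 in manakin SH, 0 to 3 in finch SH and 0 to 1 in finch PEC. In manakin SH the count was 1 without SH +T library 3, of 20 genes called in all (0.224%). In finch PEC it was 1 without SH flutamide library 1, of 1 gene called in all (0.0105%). In finch SH the count was 3 without SH T-only library 3 and 1 without SH flutamide library 1 or PEC T-only library 3, of 623, 424 and 548 genes called in all. At an unadjusted p below 0.05, leaving out 1 library gave 6 to 28 members in manakin SH and 1 to 12 in manakin PEC. In manakin SH the lowest was without SH -T library 2. The highest was without SH +T library 3, where the share of all genes was 19.3% in place of 11.5%. The 12 in manakin PEC came without SH +T library 2, where that share was 17.8% in place of 13.3%. The range was 7 to 16 in finch SH, the lowest without SH T-only library 1, and 1 to 3 in finch PEC. All-gene shares are not given for the other ends of these ranges, so the ranges are no result about the members. Limma without a variance trend, also added after seeing the data, called 0 members in all 6 tests, and 17 in place of 36 genes in manakin PEC and 653 in place of 595 in finch SH. Without the trend, ENSTGUG00000012207 has the smallest p among members higher in finch SH in place of ENSTGUG00000003253. The cause of these moves was not tested.

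The median member log2 difference was 0.214 in manakin PEC and 0.487 in finch SH after median-ratio scaling, and with 1 library left out -0.34 to -0.0478 in manakin SH and -0.0592 to 0.0373 in manakin PEC.

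With the replicate number as a block, 1 member was called in finch SH of 608 genes in all, ENSTGUG00000018459 (adjusted p = 0.0208), and 0 in the other 3 treatment comparisons. Libraries of equal number in different treatments are different birds whose deviations correlated at -0.243 to 0.072, so the numbers do not pair them. With the bird as a replicate block, 0 members were called in both tests of treatment by muscle.

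Each value rests on 216 recovered reads or more. With 1 library per bird and muscle, spread between birds and between libraries cannot be told apart. Levels set across species carry the assignment of manakin reads to zebra finch genes.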
